A study of Homo sapiens with 6 samples.

Results

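The genes described here are 56 genes of the cell cycle engine: cyclins, cyclin-dependent kinases (CDKs), CDK inhibitors and adaptors, the CDC25 phosphatases, the kinases that oppose them, the retinoblastoma family of pocket proteins, and the E2F factors with their DP partners. They were chosen by gene symbol, not by any measured value, and are 56 of the 20532 genes in the deposited count table. RNA was sequenced from the human breast cancer line MDA-MB-231 M3, which metastasises to bone. In the siPRMT1 group are 3 libraries of cells in which PRMT1, the main enzyme for asymmetric dimethylation of protein arginine, was knocked down by small interfering RNA (siRNA). In the control group are 3 libraries of cells, which the labels describe as untreated or control without saying whether they received a control siRNA. Both groups are of 1 cell line, carry whatever that line carries, and were grown under what the labels call standard conditions; neither the siRNA nor the time after its delivery is described further. The comparison asks which transcripts of this machinery differ when PRMT1 is knocked down.

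Progress through the cell cycle is driven by CDKs, which are active only when bound to a cyclin. D-type cyclins with CDK4 or CDK6 phosphorylate the pocket proteins RB1, RBL1 and RBL2, which otherwise hold E2F factors in check, and E2F factors switch on cyclin E, cyclin A and the genes of DNA replication. Cyclin B with CDK1 drives mitosis once CDC25 phosphatases remove the inhibitory phosphates placed by WEE1 and PKMYT1. A separate branch of the family, including CDK7, CDK8, CDK9, CDK12, CDK13 and CDK19 with cyclins C, H, K and T, acts on RNA polymerase II and its Mediator complex, and CDK7 with cyclin H also activates the CDKs of cell division.

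The libraries held between 16968563 and 20545995 counts, and the knockdown target checked the labels. PRMT1 had 11.97, 11.9 and 11.9 CPM in the siPRMT1 libraries, against 144, 149.5 and 145 CPM in the control libraries, a log2 fold change of -3.62 (SE 0.0451; edgeR quasi-likelihood test, adjusted p = 9.06e-297; CPM are counts scaled to a common library size with TMM factors). The cell line's markers VIM, CD44, KRT8 and KRT18 were abundant, between 255 and 2368 CPM in the group means, and the hormone receptor genes ESR1 and PGR had 5 counts and 1 count over the 6 libraries. ERBB2, the HER2 gene listed with these receptors, was expressed, at a mean of 72.9 CPM in siPRMT1 and 61.3 CPM in control libraries. Of the defining markers of other cell types, PTPRC had 11 counts in all, CD3E had 2, CDH5 had 1, VWF had 18, COL1A2 had 34 and PDGFRA had 46. PDGFRB and LYZ averaged under 2 CPM in each group. Others were expressed: PECAM1 averaged 20.03 CPM in siPRMT1 and 21.03 CPM in control libraries, CD14 averaged 8.27 and 4.32 CPM in the same groups, and COL1A1 averaged 22.9 CPM in siPRMT1 and 7.05 CPM in control libraries. Counts of mitochondrially encoded genes were 8.64% to 8.74% of the total in the siPRMT1 libraries and 5.001% to 5.09% in the control libraries, and the part of this difference in the results below was not tested. The fit called 89.3% of all 13710 tested genes at an adjusted p below 0.05, so a call alone does not set a gene apart here. With scaling by library size alone, the median log2 fold change of all tested genes moved by -0.32.

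After PRMT1 knockdown 24 of the 56 genes rose and 28 fell, and all 56 passed the filter on low counts. Together 52 of 56 (92.9%) were called, against the 89.3% of all tested genes. By direction, 42.9% of these genes rose and 50% fell, against 44.3% and 45% of all tested genes, so their shares lay near the background. With scaling by library size alone 19 rose and 32 fell. That scaling also put the median log2 fold change of all tested genes at -0.33. Their shares by direction under it were not counted, so the 19 and 32 have no background here. With TMM scaling, CCND2, CDKN2D, E2F2 and E2F6 did not pass. At least 2-fold changes were seen in 6 genes that rose (CDC25B, CDK4, CDK5, CDKN1C, CDKN3 and PKMYT1), or 10.7% against 15.3% of all tested genes, and 15 that fell (CCNC, CCNE2, CCNG2, CCNL1, CCNT1, CCNT2, CDK12, CDK13, CDK19, E2F3, E2F7, RB1, RBL1, RBL2 and WEE1), or 26.8% against 21% of all tested genes. The 3 siPRMT1 and the 3 control values did not overlap for 52 of the 56, against 89.1% of all tested genes; this takes in CCND2 and leaves out CDKN2C. The median log2 fold change was -0.11 over the 56 genes and -0.0082 over all tested genes.

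**Figure D1:**
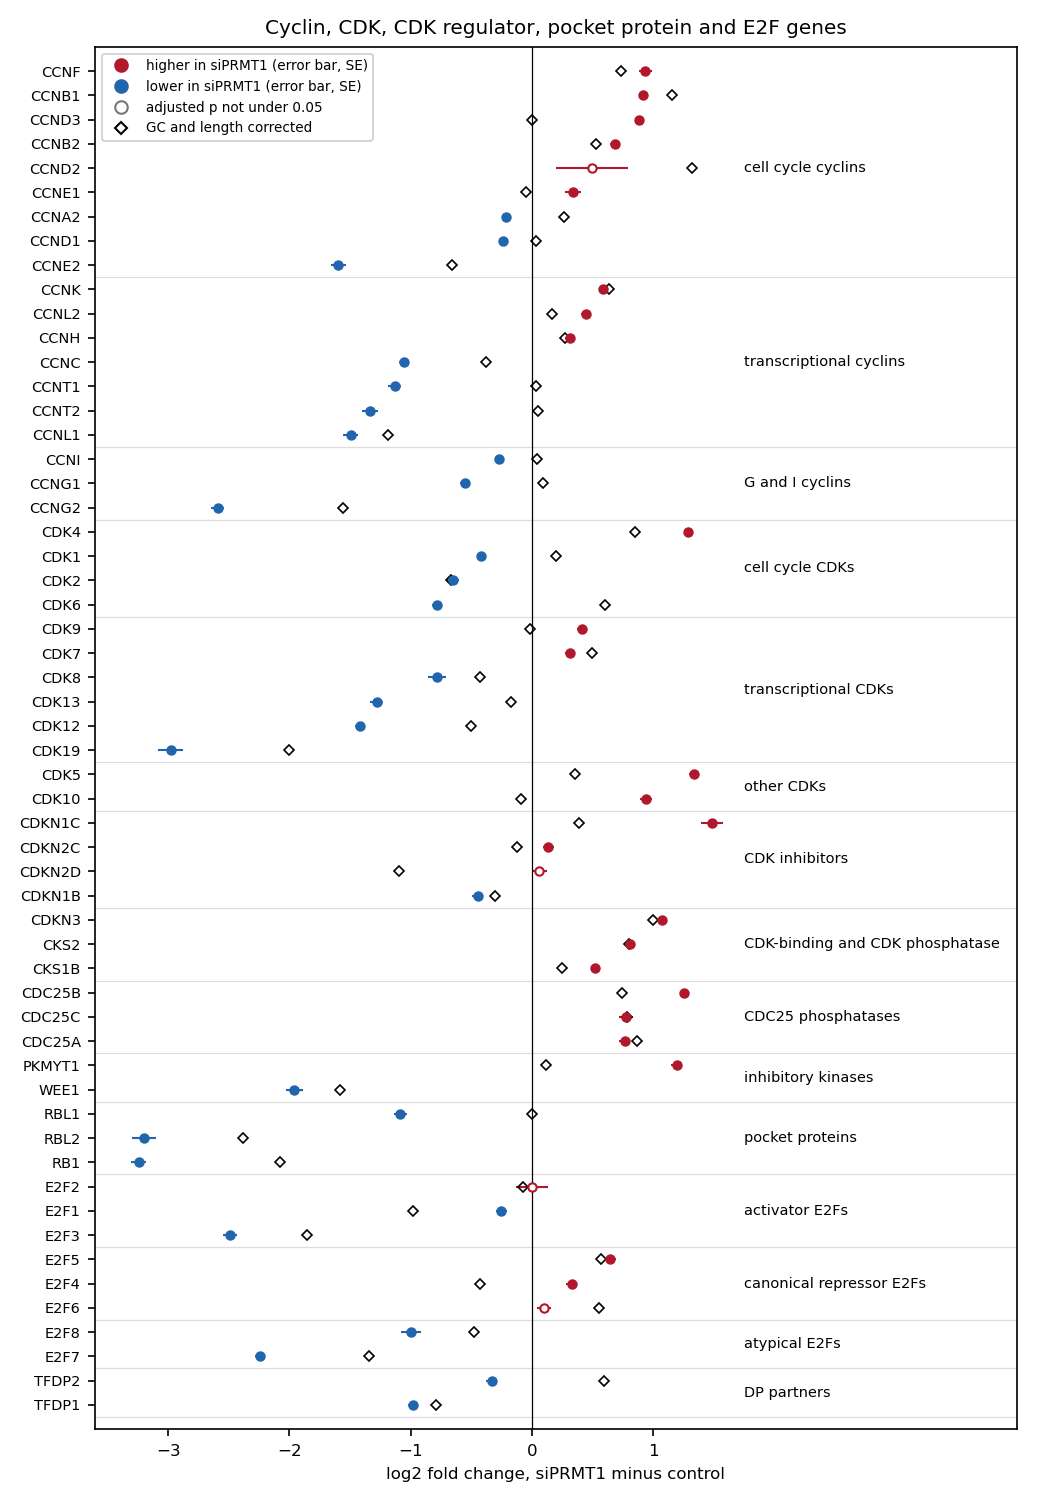
Log2 fold change, siPRMT1 minus control (x axis), of each of the 56 genes (rows, grouped by role), with its SE as the bar, red where higher, blue where lower and open where not called; diamonds are the values after correction for GC content and transcript length. Among the pocket proteins, RB1 and RBL2 lie near -3.24 and -3.20, and the CDC25 phosphatases all lie above 0 with either value.

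Fold changes in these libraries followed transcript length and GC content. Over all tested genes with an annotated transcript, Spearman's rho of the log2 fold change was 0.65 with GC content and -0.56 with length, and over the 56 genes it was 0.56 and -0.61, given as descriptions because genes share the same 6 libraries. The 24 genes that rose had a median GC content of 51.8% and a median transcript length of 1959 bases, and the 28 that fell had 43.0% and 3972 bases. A second set of fold changes, called corrected here, was therefore computed after the trend with both properties was removed in each library, which brought rho over all genes to 0.013 and -0.036. Corrected, 25 of the 56 genes were higher (44.9% of all genes) and 21 were lower (35.6%). Corrected changes of at least 2-fold were called in CCNB1, CCND2 and CDKN3 among the higher genes (5.71% of all genes), and in CCNG2, CCNL1, CDK19, CDKN2D, E2F3, E2F7, RB1, RBL2 and WEE1 among the lower (8.53%). For 7 genes (CCNA2, CCNG1, CDK1, CDK6, CDKN2C, E2F4 and TFDP2; 15.5% of all genes) both fits made a call and the direction was opposite. The cause of the trend was not tested, and corrected values are given beside the results.

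**Figure D2:**
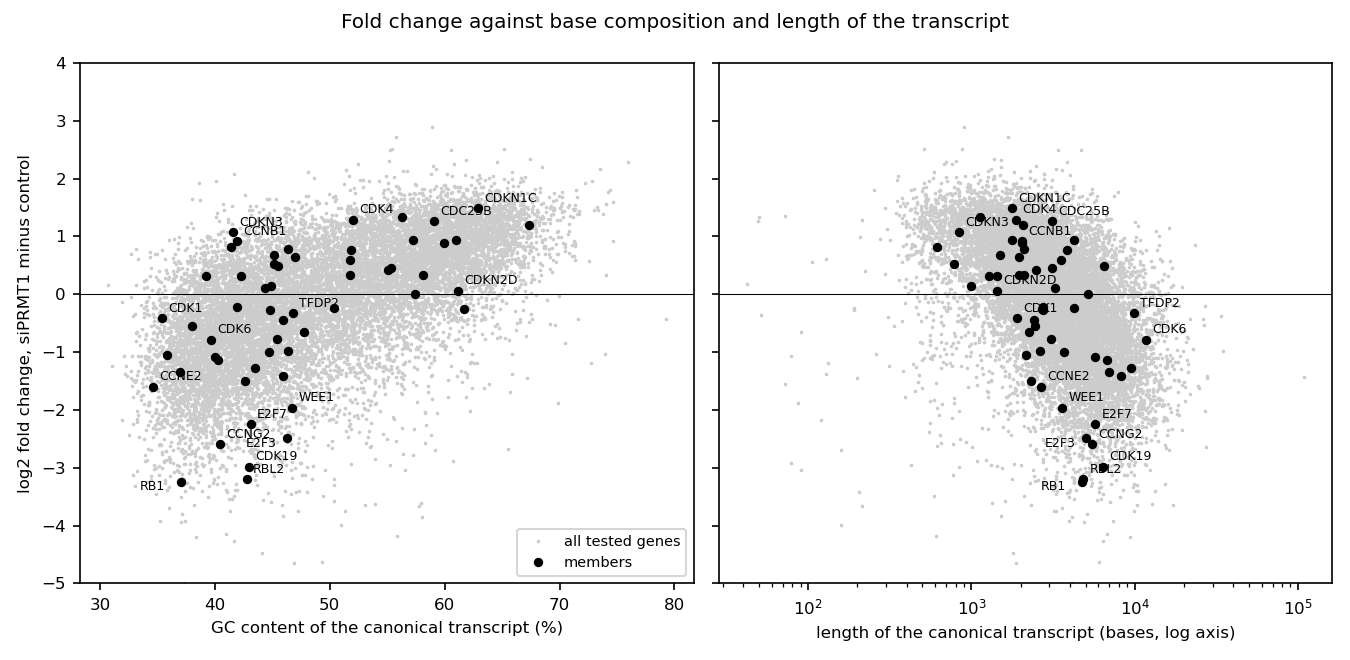
Log2 fold change, siPRMT1 minus control (y axes), of all tested genes (grey) and the 56 genes (black) against the GC content in percent and the length in bases (log axis) of the canonical transcript. Genes of higher GC content and shorter transcripts lie higher, with rho of 0.56 and -0.61 over the 56 genes.

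All 3 pocket protein genes fell, RB1 and RBL2 with the lowest fold changes of the 56. RB1, the retinoblastoma protein that binds and restrains the activator E2Fs (ENSG00000139687; hg38, chromosome 13, 48303744 to 48599436, plus strand), was the lowest. RB1 had 7.32, 7.89 and 6.57 CPM in the siPRMT1 libraries, against 70.8, 71.01 and 65.7 CPM in the control libraries. Every siPRMT1 value lay below every control value, at a mean of 7.26 ± 0.660 CPM in siPRMT1 and 69.2 ± 3.05 CPM in control libraries (SD, n = 3 each). This was 9.47-fold lower (log2 fold change -3.24, SE 0.0600, edgeR adjusted p = 1.45e-216), and RB1 ranked 72 from the bottom of 13710 tested genes. RBL2 (ENSG00000103479; hg38, chromosome 16, 53433977 to 53491628, plus strand), the pocket protein best known in resting cells, where it joins the repressive DREAM complex, was next. RBL2 had 1.99, 3.21 and 2.50 CPM in the siPRMT1 libraries, against 23.5, 23.5 and 24.6 CPM in the control libraries. The groups did not overlap, and the log2 fold change was -3.20 (SE 0.0991; adjusted p = 1.6e-126), rank 78 from the bottom. RBL1, the pocket protein that is itself made in cycling cells, had the smallest fold change of the family. RBL1 had 21.5, 19.8 and 20.7 CPM in the siPRMT1 libraries, against 45.4, 41.4 and 44.2 CPM in the control libraries, a log2 fold change of -1.08 (adjusted p = 3.66e-71). The corrected values were -2.08 for RB1, -2.38 for RBL2 and 0.0043 for RBL1, of which the last was not called. RB1, with 4731 counts in all, overlaps LPAR6 and RCBTB2 on the opposite strand, which had 6 and 304 counts, and RBL2, with 1637, overlaps AKTIP, which had 1596. How strand was treated in counting is not known. Since these are bulk RNA samples and shares of a total, fewer cells in a given phase and less RNA per cell cannot be told apart.

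Among the E2Fs, the activators E2F1 and E2F3 and the atypical E2F7 and E2F8 fell. E2F3, an activator that drives S phase genes, was among the lowest of the set (ENSG00000112242; hg38, chromosome 6, 20401879 to 20493714, plus strand). E2F3 had 10.4, 10.8 and 8.54 CPM in the siPRMT1 libraries, against 57.2, 56.5 and 54.8 CPM in the control libraries. The values did not overlap, and the fall was 5.62-fold (log2 fold change -2.49, SE 0.0583, adjusted p = 1.12e-172; corrected -1.85). E2F7, an atypical E2F that binds DNA without a DP partner and represses E2F targets, was 4.74-fold lower. E2F7 had 23.02, 24.4 and 24.6 CPM in the siPRMT1 libraries, against 113, 115 and 114 CPM in the control libraries, with little spread in either group (log2 fold change -2.24, SE 0.0404, adjusted p = 4.83e-222; corrected -1.34). E2F8, the other atypical member, fell just short of 2-fold, with a log2 fold change of -0.99 (corrected -0.47). E2F1, the founding activator, fell by little before correction (-0.25) and by more after it (-0.98). E2F2, the remaining activator, did not pass, at 4.48 ± 0.127 CPM in siPRMT1 and 4.48 ± 0.256 CPM in control libraries (SD, n = 3 each; log2 fold change 0.0013, adjusted p = 0.992).

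Of the E2Fs that act mainly as repressors, E2F4 and E2F5 were called higher and E2F6 did not pass. E2F5 rose by a log2 value of 0.65 (corrected 0.57). E2F4, the most common partner of RBL1 and RBL2, was called higher at 0.33, but was 0.011 with library-size scaling and -0.43 after correction, a call in the opposite direction. E2F6, a repressor that works without pocket proteins, was not called at 0.10 (adjusted p = 0.0989), although it passed at 0.22 without siPRMT1 replicate 2 and at 0.13 without control replicate 2, and its corrected value was 0.55. With library-size scaling E2F6 was called lower (-0.22, adjusted p = 0.000404). TFDP1, the main DNA-binding partner of the E2Fs, fell by 0.98 on the log2 scale (SE 0.0365; adjusted p = 1.58e-100; corrected -0.79). TFDP2, the other DP partner, was -0.33 before correction and 0.59 after it.

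Promoter sequence is shown for the 2 highest and 2 lowest cell cycle genes with a listed window, leaving out RB1 and the transcriptional, G-type and other cyclins and kinases, because they stand at opposite ends of the response. Where several RefSeq starts were listed for a gene, only the most upstream was used, here and in the motif counts that follow. The RB1 window in the table begins 172706 bases inside the gene and is not printed. The windows run from 250 bases before to 50 bases after the start that RefSeq gives on GRCh38.p14: CDK4 at chr12:57752261-57752560, minus strand, CDC25B at chr20:3786701-3787000, plus strand, RBL2 at chr16:53434221-53434520, plus strand and E2F3 at chr6:20401629-20401928, plus strand, of which the CDK4 start lies 3703 bases inside the deposited span of that gene. Capitals mark the CCAAT box, the letters TTTGAA of the CHR element of late cell cycle genes, the letters TTCCCGC of an E2F site, and the second E2F form TTGGCGC. A motif on the other strand stands as its reverse complement.
CDK4: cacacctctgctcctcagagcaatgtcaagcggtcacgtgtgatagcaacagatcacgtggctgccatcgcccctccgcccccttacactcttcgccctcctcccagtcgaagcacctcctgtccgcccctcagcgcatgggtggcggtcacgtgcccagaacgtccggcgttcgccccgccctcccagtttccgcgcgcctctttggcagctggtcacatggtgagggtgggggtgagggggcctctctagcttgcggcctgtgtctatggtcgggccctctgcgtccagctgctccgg
CDC25B: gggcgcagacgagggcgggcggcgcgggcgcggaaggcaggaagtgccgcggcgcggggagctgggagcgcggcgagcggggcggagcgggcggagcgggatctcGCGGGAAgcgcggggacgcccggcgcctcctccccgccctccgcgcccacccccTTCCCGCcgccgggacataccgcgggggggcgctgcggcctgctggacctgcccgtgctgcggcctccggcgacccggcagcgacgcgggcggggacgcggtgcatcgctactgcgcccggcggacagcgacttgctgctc
RBL2: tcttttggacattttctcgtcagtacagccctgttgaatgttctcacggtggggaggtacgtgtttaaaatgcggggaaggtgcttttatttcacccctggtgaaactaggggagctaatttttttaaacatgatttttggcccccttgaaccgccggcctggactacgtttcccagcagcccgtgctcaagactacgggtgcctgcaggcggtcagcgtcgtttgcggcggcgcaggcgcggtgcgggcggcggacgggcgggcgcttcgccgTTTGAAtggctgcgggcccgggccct
E2F3: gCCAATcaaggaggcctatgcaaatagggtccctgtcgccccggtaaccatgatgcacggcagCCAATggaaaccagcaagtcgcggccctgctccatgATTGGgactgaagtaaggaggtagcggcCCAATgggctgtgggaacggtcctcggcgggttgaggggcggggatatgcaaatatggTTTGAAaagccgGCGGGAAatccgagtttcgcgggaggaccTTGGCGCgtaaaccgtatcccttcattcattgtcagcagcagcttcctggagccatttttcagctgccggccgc
The CDK4 window held none of the 4 motifs, the CDC25B window held only the first E2F form, and the RBL2 window held only the CHR letters. The E2F3 window held all 4, with CCAAT repeated near its upstream end.

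Windows were listed for 47 of the 56 genes, including RB1 and CDKN1B, whose windows begin 172706 and 31870 bases inside the gene and count among those that fell. CCAAT was found in 22 of the 47 (46.8%), against 35.7% of 27305 genes with a window, and the CHR letters in 10 (21.3%), against 15.5%. TTCCCGC was found in 5 (10.6%), against 6.55%, and TTGGCGC in 8 (17%), against 3.1%. TTGGCGC stood in 6 of the 23 windows of genes that fell (CCNL1, CDK1, RBL1, E2F1, E2F3 and E2F7), in 1 of the 21 of genes that rose (CDC25A), and in that of E2F2, which did not pass. Directions in this paragraph are those before correction. After correction CDK1 was called higher (0.20) and RBL1 was not called (0.0043), while CCNL1, E2F1, E2F3 and E2F7 stayed lower and CDC25A higher. The CHR letters stood in 5 windows of each direction, and CCAAT in 12 of the genes that fell and 9 of those that rose. These are matches of letters in a fixed window and are given as a description.

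Of the D-type cyclins and their kinases, CDK4 and CCND3 were higher and CDK6 and CCND1 lower, by the uncorrected values. CDK4, the G1 kinase (ENSG00000135446; hg38, chromosome 12, 57747727 to 57756013, minus strand) that starts the phosphorylation of RB1, rose. CDK4 had 396, 400.4 and 405 CPM in the siPRMT1 libraries, against 163, 166 and 162 CPM in the control libraries. This was 2.45-fold higher with no overlap (log2 fold change 1.29, SE 0.0199, adjusted p = 1.29e-252), and the corrected value was 0.85. CDK6, its close relative, was lower before correction (-0.78) and called higher after it (0.60). CDK6 had 43.4, 45.9 and 44.6 CPM in the siPRMT1 libraries, against 78.1, 78.8 and 73.8 CPM in the control libraries. Per kilobase of gene model, CDK4 stood at 129 ± 1.49 CPM per kb in siPRMT1 and 52.9 ± 0.775 in control libraries (SD, n = 3 each), and CDK6 at 3.65 ± 0.103 CPM per kb in siPRMT1 and 6.28 ± 0.221 in control libraries. CDK4 was thus the more abundant kinase per length in every library, and by these uncorrected values by more in the siPRMT1 libraries. After correction the log2 ratio of CDK4 to CDK6 differed between groups by 0.25, against 2.07 before.

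CCND1, the main D-type cyclin of breast cancers, fell slightly. CCND1 had 421, 419.5 and 417 CPM in the siPRMT1 libraries, against 495, 492 and 494 CPM in the control libraries, a log2 fold change of -0.24 (SE 0.0138; adjusted p = 2.98e-52). CCND3 had 305, 309 and 308 CPM in the siPRMT1 libraries, against 169, 166 and 166 CPM in the control libraries, which was 1.84-fold higher (log2 fold change 0.88, SE 0.0211, adjusted p = 2.06e-169). Neither change was called after correction alone (0.032 for CCND1 and -0.0021 for CCND3), but CCND1 was called higher at 0.032 (adjusted p = 0.0305) when the replicate number was a block as well. Per kilobase of gene model, CCND1 was at 88.03 ± 0.365 CPM per kb in siPRMT1 and 104 ± 0.248 in control libraries (SD, n = 3 each). CCND3 was at 53.4 ± 0.374 CPM per kb in siPRMT1 and 28.9 ± 0.286 in control libraries (SD, n = 3 each). By this length CCND1 was the higher in both groups. The gene models span 4761 bases for CCND1 and 5761 for CCND3, but the canonical transcripts 4238 and 2026. Which of them is the more abundant per length in siPRMT1 libraries therefore depends on the length used. CCND2 was low, at 1.005 ± 0.0650 CPM in siPRMT1 and 0.711 ± 0.105 CPM in control libraries (SD, n = 3 each), and did not pass (log2 fold change 0.49, adjusted p = 0.107; corrected 1.32, adjusted p = 4.06e-05). It shares its span with ENSG00000285901 on the same strand, so its counts are uncertain.

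The inhibitors of these kinases split. CDKN1C, a Cip/Kip inhibitor and imprinted gene, had the highest fold change of the 56. CDKN1C had 15.3, 14.2 and 17.01 CPM in the siPRMT1 libraries, against 5.52, 5.85 and 5.13 CPM in the control libraries, or 2.81-fold higher (log2 fold change 1.49, SE 0.0897, adjusted p = 1.13e-49; corrected 0.39). CDKN1B, the related inhibitor of CDK2 complexes, fell. CDKN1B had 34.99, 36.6 and 35.6 CPM in the siPRMT1 libraries, against 49.8, 46.9 and 49.6 CPM in the control libraries, with no overlap (log2 fold change -0.45, SE 0.0439, adjusted p = 3.93e-22; corrected -0.30). The INK4 inhibitors of CDK4 and CDK6 had the smallest uncorrected values of the 4. CDKN2C was called at 0.14 with overlapping groups (adjusted p = 0.0021), but at 0.072 and adjusted p = 0.165 without siPRMT1 replicate 2, and it was -0.18 with library-size scaling and -0.12 after correction. CDKN2D was not called (0.064, adjusted p = 0.3), whereas its corrected value was -1.10.

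Of the cyclins of S phase and mitosis, cyclins B and F rose and CCNE2 fell. CCNE2, a cyclin E that activates CDK2 at the start of S phase, was 3.03-fold lower (ENSG00000175305; hg38, chromosome 8, 94879770 to 94896678, minus strand). CCNE2 had 11.7, 12.4 and 11.8 CPM in the siPRMT1 libraries, against 36.6, 37.98 and 34.5 CPM in the control libraries (log2 fold change -1.60, SE 0.0615, adjusted p = 5.03e-96; corrected -0.66). The groups were well apart. CCNE1, the other cyclin E, was slightly higher before correction. CCNE1 had 22.8, 21.6 and 20.4 CPM in the siPRMT1 libraries, against 17.5, 16.5 and 17.2 CPM in the control libraries (log2 fold change 0.34, adjusted p = 1.29e-07). It was not called with library-size scaling (0.024) or after correction (-0.043). CCNA2, the cyclin A of S phase and G2, was -0.21 before and 0.27 after correction, both called.

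CCNB1, the main mitotic cyclin, nearly doubled (ENSG00000134057; hg38, chromosome 5, 69167135 to 69177630, plus strand). CCNB1 had 393, 389 and 388 CPM in the siPRMT1 libraries, against 211, 206 and 203 CPM in the control libraries. The mean was 389.9 ± 2.49 CPM in siPRMT1 and 207 ± 3.97 CPM in control libraries (SD, n = 3 each), a log2 fold change of 0.91 (SE 0.0190; adjusted p = 9.95e-195), and the corrected value was higher still at 1.16. CCNB2, its sister cyclin, rose by 0.68 on the log2 scale (corrected 0.53), and CCNF, a cyclin that serves as a ubiquitin ligase subunit without a CDK, rose by 0.94 (corrected 0.73). CDK1, the kinase of the B-type cyclins, did not rise with them before correction, when its log2 fold change was -0.41, and 0.20 after correction, both called. CDK2, the partner of cyclins E and A, fell with either value (-0.65, corrected -0.67).

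The small regulators of CDK activity all rose. CDKN3, a phosphatase that dephosphorylates CDK1 and CDK2, was 2.10-fold higher. CDKN3 had 126, 124 and 124 CPM in the siPRMT1 libraries, against 59.02, 55.9 and 62.4 CPM in the control libraries (log2 fold change 1.07, SE 0.0317, adjusted p = 1.06e-133; corrected 1.0). The CDK-binding adaptors CKS2 and CKS1B rose by 0.81 and 0.52 on the log2 scale (corrected 0.80 and 0.25). All 3 CDC25 phosphatases, which activate CDKs, rose as well. CDC25B had 366, 372 and 360.3 CPM in the siPRMT1 libraries, against 152, 154 and 153 CPM in the control libraries, which was 2.39-fold higher (log2 fold change 1.26, SE 0.0207, adjusted p = 2.01e-240; corrected 0.75). CDC25A and CDC25C had log2 fold changes of 0.77 and 0.78 (corrected 0.87 and 0.79).

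The kinases that oppose CDC25 went opposite ways. WEE1, the nuclear kinase that holds CDK1 and CDK2 inactive, was 3.89-fold lower. WEE1 had 8.996, 9.35 and 5.78 CPM in the siPRMT1 libraries, against 32.7, 32.3 and 30.1 CPM in the control libraries, with siPRMT1 replicate 3 the lowest library (log2 fold change -1.96, SE 0.0708, adjusted p = 2.9e-104; corrected -1.58). PKMYT1, its membrane-bound relative that acts on CDK1, was 2.29-fold higher. PKMYT1 had 57.9, 59.5 and 58.7 CPM in the siPRMT1 libraries, against 24.1, 26.2 and 26.6 CPM in the control libraries (log2 fold change 1.20, SE 0.0450, adjusted p = 4.62e-99). With the highest GC content of the set (67.3%), PKMYT1 kept its direction after correction but at 0.12. Neither group overlapped the other for either kinase.

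**Figure D3:**
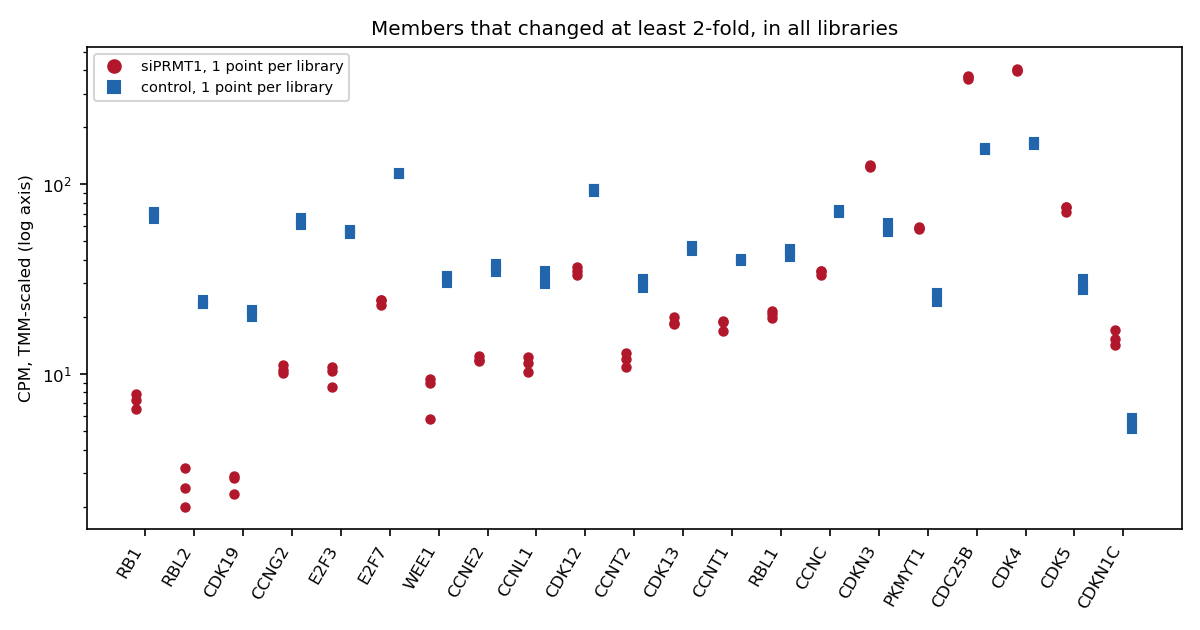
TMM-scaled CPM (log axis) in each of the 3 siPRMT1 and 3 control libraries for the 21 genes with a called change of at least 2-fold; points are libraries. For every gene the groups are apart, from 1.99 CPM for RBL2 in siPRMT1 replicate 1 to 405 CPM for CDK4 in siPRMT1 replicate 3.

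Of the 13 cyclins and kinases of the transcriptional branch 5 rose and 8 fell, against 44.3% and 45% of all tested genes, with a median log2 fold change of -1.06 (corrected -0.015, with 4 called higher and 6 lower). CDK19, a Mediator kinase, fell most (ENSG00000155111; hg38, chromosome 6, 110609978 to 110815958, minus strand). CDK19 had 2.92, 2.34 and 2.83 CPM in the siPRMT1 libraries, against 21.8, 20.04 and 21.5 CPM in the control libraries, or 7.88-fold lower without overlap (log2 fold change -2.98, SE 0.101, adjusted p = 5.04e-113; corrected -2.003). CDK8, its paralog in the same module, fell by less. CDK8 had 10.2, 10.5 and 8.93 CPM in the siPRMT1 libraries, against 16.2, 17.3 and 17.7 CPM in the control libraries (log2 fold change -0.78, adjusted p = 4.11e-22; corrected -0.43). CCNC, the cyclin that both kinases share, was 2.08-fold lower. CCNC had 34.7, 34.8 and 33.2 CPM in the siPRMT1 libraries, against 71.2, 70.2 and 72.9 CPM in the control libraries (log2 fold change -1.06, adjusted p = 1.31e-95; corrected -0.37). All parts of this kinase module among the 56 were thus lower with either value.

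CDK12 and CDK13, which phosphorylate RNA polymerase II during elongation, fell together while their cyclin rose. CDK12 had 33.2, 36.5 and 34.7 CPM in the siPRMT1 libraries, against 94.7, 93.8 and 91.3 CPM in the control libraries (log2 fold change -1.42, SE 0.0386, adjusted p = 2.41e-147; corrected -0.50). CDK13 had 18.6, 20.1 and 18.3 CPM in the siPRMT1 libraries, against 44.7, 46.8 and 47.2 CPM in the control libraries (log2 fold change -1.28, SE 0.0519, adjusted p = 2.43e-89; corrected -0.17). CCNK, the cyclin of both kinases, rose by 0.59 on the log2 scale (corrected 0.64). CDK9, the kinase of the elongation factor P-TEFb, had the opposite arrangement, being called higher at 0.41 while its cyclins fell. CCNT1 had 18.9, 16.9 and 18.9 CPM in the siPRMT1 libraries, against 39.4, 40.2 and 39.7 CPM in the control libraries (log2 fold change -1.13, SE 0.0543, adjusted p = 2.73e-70). CCNT2 had 12.04, 12.8 and 10.8 CPM in the siPRMT1 libraries, against 31.7, 30.4 and 28.5 CPM in the control libraries (log2 fold change -1.34, SE 0.0643, adjusted p = 4.06e-70). None of these P-TEFb genes was called after correction, at -0.015 for CDK9, 0.037 for CCNT1 and 0.056 for CCNT2.

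CDK7 and CCNH, which form the CDK-activating kinase of the general factor TFIIH, were called higher at 0.31 and 0.32. With library-size scaling they were -0.0048 and 0.0013, neither called, and after correction 0.50 and 0.27. The L-type cyclins, which are linked to RNA splicing, went opposite ways. CCNL1 had 10.3, 11.4 and 12.3 CPM in the siPRMT1 libraries, against 31.4, 29.7 and 34.7 CPM in the control libraries, or 2.82-fold lower (log2 fold change -1.49, SE 0.0646, adjusted p = 7.79e-82; corrected -1.19). CCNL2 had 56.6, 57.4 and 56.1 CPM in the siPRMT1 libraries, against 42.5, 42.1 and 40.2 CPM in the control libraries (log2 fold change 0.45, SE 0.0407, adjusted p = 3.21e-25; corrected 0.16). The groups did not overlap for either gene.

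Outside these branches, CCNG2, an atypical cyclin associated with cell cycle arrest, was 6.02-fold lower (ENSG00000138764; hg38, chromosome 4, 77157207 to 77433388, plus strand). CCNG2 had 10.5, 10.1 and 11.2 CPM in the siPRMT1 libraries, against 61.3, 66.5 and 62.96 CPM in the control libraries (log2 fold change -2.59, SE 0.0560, adjusted p = 2.71e-187; corrected -1.56). CCNG1, a p53 target, fell by less before correction (-0.55) and was called slightly higher after it (0.092). CCNI, cyclin I, had a log2 fold change of -0.27, not called after correction (0.045). CDK5, a kinase best known from neurons, was 2.53-fold higher. CDK5 had 75.4, 71.2 and 75.8 CPM in the siPRMT1 libraries, against 27.8, 28.3 and 31.6 CPM in the control libraries (log2 fold change 1.34, SE 0.0416, adjusted p = 3.37e-126; corrected 0.36). CDK10, the partner of cyclin M, rose by 0.94 on the log2 scale but was not called after correction (-0.086).

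Ratios between related genes were taken within each library, which frees them of any scaling between libraries. Of 20 pairs, the ratio did not overlap between groups in 18 and overlapped in CCNT1 to CCNT2 and CDKN2C to CDKN2D; single genes did not overlap in 89.1% of all those tested. With 3 libraries a group the exact two-sided permutation test cannot go below p = 0.10, which all 18 reached (Benjamini-Hochberg adjusted p = 0.111 over the 20 pairs), so no pair could pass 0.05. In 6 pairs the members were called in opposite directions: CCND1 and CCND3, CCNE1 and CCNE2, CCNL1 and CCNL2, CDK4 and CDK6, PKMYT1 and WEE1, and CDKN1B and CDKN1C. The PKMYT1 to WEE1 count ratio was 6.40, 6.33 and 10.1 in the siPRMT1 libraries and 0.736, 0.813 and 0.886 in the control libraries. Its log2 value differed by 3.20, the widest of the 20 pairs, with means of 2.89 ± 0.381 in siPRMT1 and -0.30 ± 0.134 in control libraries (SD, n = 3 each). WEE1 had the more counts in every control library and PKMYT1 in every siPRMT1 library. The order turned likewise for CCNE1 to CCNE2, at 1.95, 1.73 and 1.72 in the siPRMT1 libraries and 0.479, 0.435 and 0.499 in the control libraries, for CDK8 to CDK19, at 3.46, 4.41 and 3.11 in the siPRMT1 libraries and 0.745, 0.866 and 0.825 in the control libraries, and for E2F1 to E2F3, at 3.76, 3.42 and 4.35 in the siPRMT1 libraries and 0.752, 0.826 and 0.841 in the control libraries. It also turned for CCNG1 to CCNG2, at 3.41, 3.51 and 3.29 in the siPRMT1 libraries and 0.864, 0.791 and 0.837 in the control libraries. These are ratios of uncorrected counts and are not per length. The RBL1 to RBL2 ratio was 10.6, 6.08 and 8.10 in the siPRMT1 libraries and 1.93, 1.76 and 1.79 in the control libraries, and that of CDK4 to CDK6 was 9.11, 8.71 and 9.07 in the siPRMT1 libraries and 2.08, 2.11 and 2.19 in the control libraries.

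**Figure D4:**
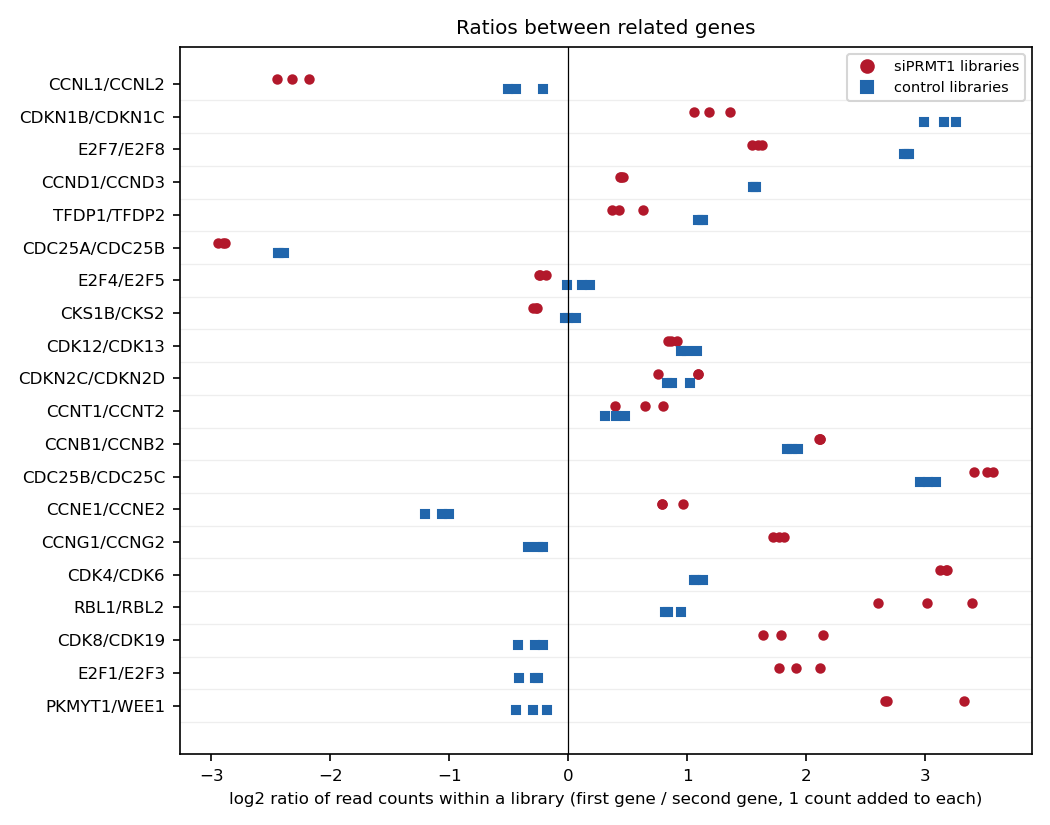
Log2 count ratio of the first to the second gene of each of 20 pairs (rows) in the 3 siPRMT1 and 3 control libraries (points). The groups are apart in 18 pairs, and the PKMYT1 to WEE1 ratio moves the furthest, by 3.20.

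After the correction for GC content and length, the difference in log2 ratio, siPRMT1 minus control, kept its sign in 16 of the 20 pairs. It was over 1 in size for RBL1 to RBL2 (2.39), PKMYT1 to WEE1 (1.70), CCNG1 to CCNG2 (1.65), CDK8 to CDK19 (1.58), TFDP1 to TFDP2 (-1.39) and CCNL1 to CCNL2 (-1.35). It shrank for CDK4 to CDK6, to 0.25 against 2.07 before correction, for CCNE1 to CCNE2, to 0.61 against 1.94, and for E2F1 to E2F3, to 0.87 against 2.25. It changed sign for CCND1 to CCND3, CCNT1 to CCNT2, CDC25A to CDC25B and CDC25B to CDC25C. Members were called in opposite directions in 6 pairs after correction too, of which 3 were the same pairs: CCNL1 and CCNL2, PKMYT1 and WEE1, and CDKN1B and CDKN1C.

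Genes that this machinery controls or works with moved in both directions, and the counts below stand against 44.3% higher and 45% lower among all tested genes (44.9% and 35.6% when corrected). Counts with library-size scaling have no such background. That scaling moved the median of all tested genes by -0.32, and their shares by direction under it were not counted. Of 18 E2F target genes of S phase, 6 rose, 11 fell and 1 did not pass (7 higher and 7 lower when corrected), with a median log2 fold change of -0.28 (corrected 0.0013). CDT1, which loads the replicative helicase, averaged 54.1 ± 1.69 CPM in siPRMT1 and 16.8 ± 0.955 CPM in control libraries (SD, n = 3 each; 1.69, corrected 0.87), and the salvage enzyme TK1 had a log2 fold change of 1.24 (corrected 0.12) and the helicase subunit MCM5 0.87 (corrected 0.59). The helicase subunit MCM6 fell by 0.84 (corrected -0.22), while the ribonucleotide reductase subunits RRM2 and RRM1 were -0.65 and -0.52 before and -0.062 and 0.015 after correction. Of 7 genes of the DREAM and MMB complexes, which time late cell cycle genes, 3 rose and 4 fell (2 and 4 when corrected, 1 and 4 with library-size scaling), with a median of -0.66 (corrected -0.19). The DREAM subunit LIN37 was higher, at 26.2 ± 1.25 CPM in siPRMT1 and 7.65 ± 0.820 CPM in control libraries (SD, n = 3 each; log2 fold change 1.78, corrected 0.57), and its neighbours in the complex LIN54, LIN9 and RBBP4 were lower (-2.05, -1.27 and -1.36; corrected -0.86, -0.27 and -0.19). The mitotic factors FOXM1 and MYBL2 were called higher at 0.31 and 0.31, but with library-size scaling each stood at -0.011, and MYBL2 was -0.37 after correction (FOXM1 0.083).

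Of 12 late cell cycle targets 5 rose and 7 fell (6 and 6 when corrected, 3 and 8 with library-size scaling), with a median of -0.36 (corrected 0.074). The mitotic kinases AURKB and PLK1 and the survivin gene BIRC5 rose by 1.33, 1.11 and 0.98 on the log2 scale (corrected 0.43, 0.44 and 0.84). The kinetochore motor CENPE fell to 11.96 ± 1.91 CPM in siPRMT1 libraries, against 52.9 ± 2.19 CPM in control libraries (SD, n = 3 each; -2.13, corrected -0.52). The checkpoint kinase BUB1 was lower with either value (-1.001, corrected -0.32), and the kinetochore protein CENPF was -0.77 before and 0.51 after correction. Of 16 genes linked to the degradation of cyclins and CDK inhibitors, whether they promote or restrain it, 4 rose, 10 fell and 2 did not pass. When corrected 8 were higher and 5 lower, and with library-size scaling 3 and 13. The median was -0.23 (corrected 0.092). CDC20 and FZR1, which activate the anaphase-promoting complex, rose by 1.31 and 0.74 (corrected 0.45 and 0.38), as did its subunit ANAPC11 (1.23, corrected 0.12). Its subunits CDC27, CDC23 and ANAPC1 fell (-1.97, -1.29 and -1.03; corrected -0.66, -0.79 and -0.057).

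Among 13 partners of the transcriptional CDKs 3 rose, 9 fell and 1 did not pass (4 higher and 8 lower when corrected), with a median of -0.37 (corrected -0.36). The Mediator kinase module subunits MED13L and MED13, which tie CDK8 or CDK19 to Mediator, fell beside CDK19 and CCNC, but MED12, the subunit that activates the module's kinase, did not pass (0.02, adjusted p = 0.732) and was called higher after correction (0.30). MED13L averaged 5.33 ± 0.360 CPM in siPRMT1 and 46.6 ± 0.744 CPM in control libraries (SD, n = 3 each; log2 fold change -3.13, corrected -2.25), and MED13 averaged 15.9 ± 1.14 CPM in siPRMT1 and 79.9 ± 1.21 CPM in control libraries (-2.32, corrected -0.90). AFF4, the scaffold of the super elongation complex that carries P-TEFb, was lower as well (-2.33, corrected -1.08). MEPCE, a subunit of the complex that holds P-TEFb inactive, rose by 1.02 (corrected 0.34). HEXIM2, an inhibitor in the same complex, was 0.80 before and -0.36 after correction. HEXIM1, the more abundant inhibitor at 125 ± 2.75 CPM in siPRMT1 and 151 ± 0.882 CPM in control libraries (SD, n = 3 each), fell (-0.28, adjusted p = 7.28e-24; corrected 0.013, not called), and LARP7, a further subunit, was -0.26 before and 0.28 after correction. MNAT1, the assembly factor of CDK7 and cyclin H, was 0.31, 1.10 corrected, and -0.0091 with library-size scaling.

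Called in the same direction in the fit described and in all 17 alternatives, including the corrected ones, were 16 genes that rose and 18 that fell, against 24.5% and 25.9% of all tested genes. The 16 were CCNB1, CCNB2, CCNF, CCNK, CCNL2, CDC25A, CDC25B, CDC25C, CDK4, CDK5, CDKN1C, CDKN3, CKS1B, CKS2, E2F5 and PKMYT1. The 18 were CCNC, CCNE2, CCNG2, CCNL1, CDK2, CDK8, CDK12, CDK13, CDK19, CDKN1B, E2F1, E2F3, E2F7, E2F8, RB1, RBL2, TFDP1 and WEE1.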

How the data were processed

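Total RNA of 3 siPRMT1 and 3 control samples of the MDA-MB-231 M3 line was extracted with TRIzol, made into stranded mRNA libraries and read as pairs of 150 bases, per the labels' protocols. The authors deposited raw read counts, whole numbers with no normalization, for each gene, with gene length in bases, per the file headers. The submitters' processing notes list the build hg38, the trimmer fastp (0.23.2), the counter featureCounts with Subread (1.5.1), the aligner STAR (2.7.6a) and edgeR (3.40.2). How strand and duplicate reads were treated is not stated there, so reads of overlapping genes may be shared, and 16 of the 56 genes overlap another gene of the table. For CCND2, CCNE2, CCNG1, CCNK, CDK5, CDC25C and E2F5 an overlapping gene had more counts, on the opposite strand for all but CCND2. CDK5 had 5526 counts in all, and SLC4A2, which shares 688 bases with it, had 21918.

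The counts were fitted in R 4.3.3 with edgeR 4.0.16 (filterByExpr, TMM scaling, quasi-likelihood fit and test on group alone, all 6 samples), which left 13710 of 20532 genes, with Benjamini-Hochberg adjustment over all of them at a threshold of 0.05. The SE of a log2 fold change comes from its F statistic. The common dispersion was 9.77e-05, the lowest value the search allows. Chi-square over degrees of freedom was 1.045 to 1.383 between replicates of a group (p = 4.4e-178 to 0.000129), so none agreed within sampling noise. Replicates are labelled biological, with no separate cultures named, so the spread behind each p-value is that between these samples and may be technical. The corrected fold changes come from splines with 5 degrees of freedom on the GC content and log2 length of the canonical transcript in GENCODE release 44, known for 13694 tested genes, fitted in each sample and removed as offsets. Ratios of pairs used counts + 1. Promoter windows are from RefSeq, with only the most upstream kept where several were listed for a gene. The fit was also run on simulated counts, in which the changed genes were drawn at random with respect to GC content and length. That run cannot show whether the correction removes real changes linked to these properties. Alternatives were other scalings, filters and tools (limma-voom 3.58.1, DESeq2 1.42.0), a replicate block, the correction, and each sample left out; figures were drawn in Python 3.11.15.

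The genes, the lists of partners and targets, and the rules were chosen with earlier results of these data known. Every one of the 56 genes is named; values in all libraries are given for called genes with at least a 2-fold uncorrected change and a mean of at least 5 CPM over the 6 libraries, for pairs called in opposite directions, and for CDK8 and CCNB1, which were chosen after their values were seen. Each list adds by name, in each direction, at most the 3 genes of lowest adjusted p; MED12, HEXIM1 and LARP7 were named after their values were seen. No protein sequence was used here.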

Additional observations from a re-analysis of the deposited data

How the results depend on the processing

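Of the 56 fold changes, DESeq2, limma-voom, RLE scaling, robust estimation and the replicate block changed no direction and no call. The same-numbered samples did not deviate together (correlations of -0.0173, -0.0274 and -0.0169), which gave no sign of pairing by number. Such correlations cannot show whether these samples were grown or prepared together, and the labels do not say. With the block 12219 genes were called, and 24 of the 56 rose and 28 fell. The correction for GC content and length moved most, with and without the block. Genes with a called change of at least 2-fold numbered 4976, but 1953 after correction and 1956 with the block and correction; among the 56 those higher numbered 6, but 3 and 3, and 2 with library size alone, and those lower 15, but 9 and 9.

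The median log2 fold change of the 56, -0.11, was -0.15 with upper-quartile scaling, -0.42 with library size alone, -0.22 with a filter of at least 1 CPM in 3 samples, 0.034 after correction and 0.035 with the block too, and between -0.12 and -0.088 when samples were left out. The fold changes of 18 genes turned under the correction, given here as corrected, then with the block: CCNE1 -0.043 and -0.042, RBL1 0.0043 and 0.0098, CCNI 0.045 and 0.045, CDKN2D -1.10 and -1.10, CDK1 0.20 and 0.20, CDKN2C -0.12 and -0.12, CCND3 -0.0021 and -0.0022, E2F4 -0.43 and -0.43, CDK9 -0.015 and -0.016, CCNG1 0.092 and 0.093, CCNT1 0.037 and 0.038, CDK10 -0.086 and -0.081, E2F2 -0.073 and -0.072, CCNT2 0.056 and 0.053, CCND1 0.032 and 0.032, CDK6 0.60 and 0.60, CCNA2 0.27 and 0.26 and TFDP2 0.59 and 0.59. How many of all tested genes turned in this way was not counted, so the 18 have no background share. Opposite calls in both fits were made for 7 of the 56 (12.5%), against 15.5% of all tested genes. With library size alone, CDKN2D was -0.25, CDKN2C -0.18, E2F6 -0.22, E2F2 -0.32 and CDK7 -0.0048. E2F2 was also -0.046 with upper-quartile scaling, -0.011 without a filter, -0.00086 with the stricter filter and between -0.035 and 0.047 when samples were left out. CCND2 could not be tested under the stricter filter. Among the pairs, the log2 ratio turned under the correction to 0.034 for CCND1 to CCND3, -0.019 for CCNT1 to CCNT2, 0.12 for CDC25A to CDC25B and -0.040 for CDC25B to CDC25C. The cause was not tested. Depth limits CCND2, with about 1 CPM, and the smallest changes.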
